A study of Homo sapiens with 15 samples.

Results

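Neurons made from human neuromesodermal progenitors were compared with the self-renewing progenitors (srNMPs) that stand at the start of the same series. The comparison takes 8 of the 15 libraries of the series, 4 of neurons and 4 of srNMPs, and was set by the labels alone. H1 and HUES9 are established human embryonic stem cell lines, and their labelled genotype is wild type. The neurons were H1 dorsal, HUES9 dorsal, H1 ventral and HUES9 ventral neurons, 1 library of each. The srNMPs were H1 and HUES9 cultures at passage 8 and at passage 25, 1 library of each. All 8 carry the same treatment label, neural induction, and the day on which the neurons were taken is not given in the sources used here. Each library is RNA from a whole culture, so fewer cells of a type and less RNA per cell cannot be told apart. The labels do not say whether cultures of a line were started independently, and p-values therefore measure the spread between these libraries, which joins dorsal with ventral neurons and early with late passages.

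Neuromesodermal progenitors are cells of the tail end of the embryo that give rise to spinal cord and to trunk muscle. WNT and FGF signals hold them in a state that co-expresses the mesodermal factor TBXT and the neural factor SOX2. When these signals fade, cells that take the neural path become dividing neural progenitors and then leave the cell cycle as neurons, which build axons and synapses, replace several housekeeping isoforms by neuronal ones, and take a type set by their dorsal or ventral position.

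Levels are FPKM (fragments mapped to a gene, scaled to transcript length and to all mapped fragments), as listed by the authors. Summed FPKM were 290306 to 304603 in neurons and 344965 to 421109 in srNMPs. Low values gave depths of 0.958 to 1.05 times the mean of these 8 libraries. Only genes with similar low FPKM in a library and in H1 dorsal neurons were used, so a large difference in depth could not appear. Spearman correlations over genes were 0.927 to 0.967 between neuron libraries, 0.953 to 0.979 between srNMP libraries and 0.836 to 0.914 across the states. Markers fixed for neurons were high in 4 of 4 neuron libraries. The srNMPs held TBXT, FGF8 and SP5 in 4 of 4 libraries, but the H1 passage 8 library listed the caudal factor CDX2 at 0.00615 FPKM and CDX4 and NKX1-2 at 0. A pair of libraries stood apart within their state. The HUES9 dorsal neurons kept high levels of mitosis genes, and the HUES9 passage 25 srNMPs carried neuronal transcripts such as STMN2. For lists of neuronal genes the counts without HUES9 passage 25 srNMPs are given, and for motor neuron and division genes those without HUES9 dorsal neurons.

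Single-library values below run in 1 order, which is H1 dorsal, HUES9 dorsal, H1 ventral and HUES9 ventral for neurons, then H1 passage 8, HUES9 passage 8, H1 passage 25 and HUES9 passage 25 for srNMPs. Log2 changes are neurons minus srNMPs on the log2(FPKM + 1) scale, with a standard error, and understate the change of weakly expressed genes. Calls are limma tests that passed an adjusted p of 0.05, with the cell line as a term of the fit.

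About every second expressed gene differed between neurons and srNMPs. Neurons gained genes of the axon, the synaptic vesicle, ion channels and transmitter receptors, and lost genes of the progenitor state, of LIN28 and its partners, of cell division and of the ribosome. Of 13265 genes tested, 6387 were called, a background of 48.1%. Of these, 3482 (26.2%) were higher and 2905 (21.9%) were lower in neurons, and the FPKM of 6223 genes (46.9%) did not overlap between the states. The median change of all genes was 0.08. A gene was tested when at least 1 of the 8 libraries reached 1 FPKM, so a gene that passed only through the state where it is high had to differ, and the counts of such lists below are descriptions. The split depends on the scale, since srNMPs have the larger FPKM sums. Higher genes were 54.5% of calls with values as listed, 72.7% (4749 higher, 1785 lower) with equal sums and 44.1% (2769 higher, 3506 lower) after quantile normalization, with all-gene medians of 0.08, 0.345 and -0.08. The plot of called genes by list sets each group of genes against these backgrounds.

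**Figure D1:**
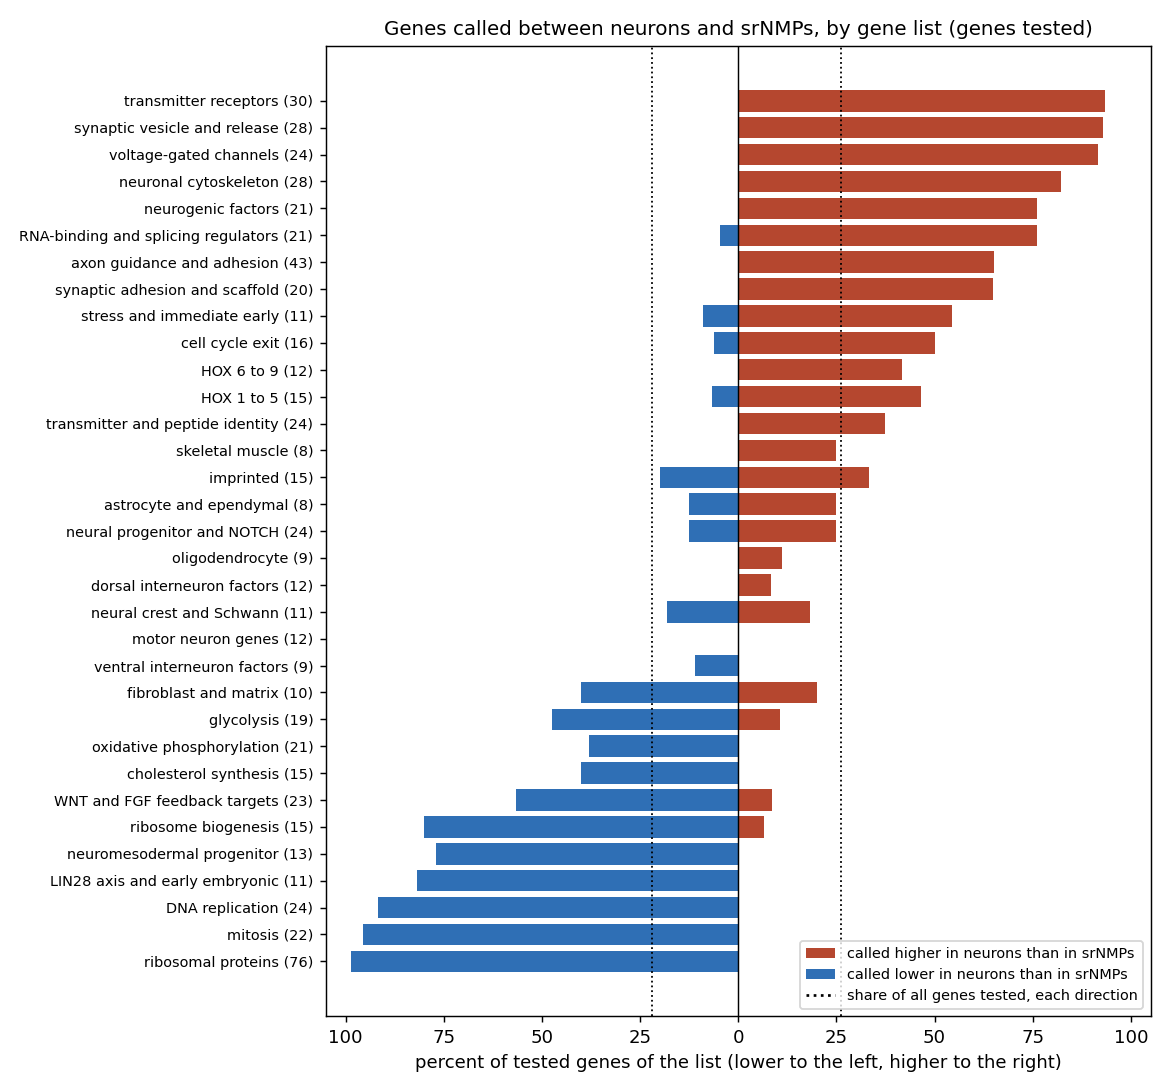
Share of the tested genes of each list that were called higher (right) or lower (left) in neurons than in srNMPs, in percent, with the number tested in brackets. Dotted lines mark the shares over all genes tested, 26.2% and 21.9%. Synaptic and channel lists lie far to the right, and ribosomal protein, mitosis and DNA replication lists far to the left.

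Each of 5 neuronal markers was higher in every neuron library than in any srNMP library. STMN2, a tubulin-binding protein of growing axons, was at 653, 451, 699 and 689 FPKM in neurons, against 13.3, 2.47, 3.26 and 72.0 in srNMPs. The HUES9 passage 25 culture was the highest of the srNMPs, still below all neurons (log2 change 5.79 ± 0.87, adjusted p = 0.00123). DCX, a microtubule protein of young neurons, was at 143, 152, 118 and 283 FPKM in neurons, against 3.28, 0.240, 0.414 and 8.26 in srNMPs, with the HUES9 ventral neurons highest (log2 change 5.84 ± 0.61, adjusted p = 0.000252). MAPT, the axonal microtubule protein tau, was at 90.1, 49.8, 140.1 and 97.8 FPKM in neurons, against 1.60, 0.374, 0.607 and 2.57 in srNMPs (log2 change 5.40 ± 0.38, adjusted p = 6.12e-05). The vesicular glutamate transporter SLC17A6 was at 17.6, 10.3, 25.7 and 11.9 FPKM in neurons, against 0.159, 0.00750, 0 and 0.118 in srNMPs (log2 change 3.94 ± 0.23, adjusted p = 2.98e-05). It was present in dorsal and ventral neurons alike and near 0 in all srNMPs. EEF1A2, the translation elongation factor of neurons and muscle, was at 154, 96.2, 376 and 269 FPKM in neurons, against 0.313, 0.186, 0.409 and 0.668 in srNMPs. Its change was the largest rise of all genes that met the naming rule (log2 change 7.16 ± 0.39, adjusted p = 2.07e-05), and ventral neurons of both lines stood above dorsal ones. All 5 markers were called in each alternative fit of the comparison, but SLC17A6 and EEF1A2 reached 1 FPKM in neurons alone.

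**Figure D2:**
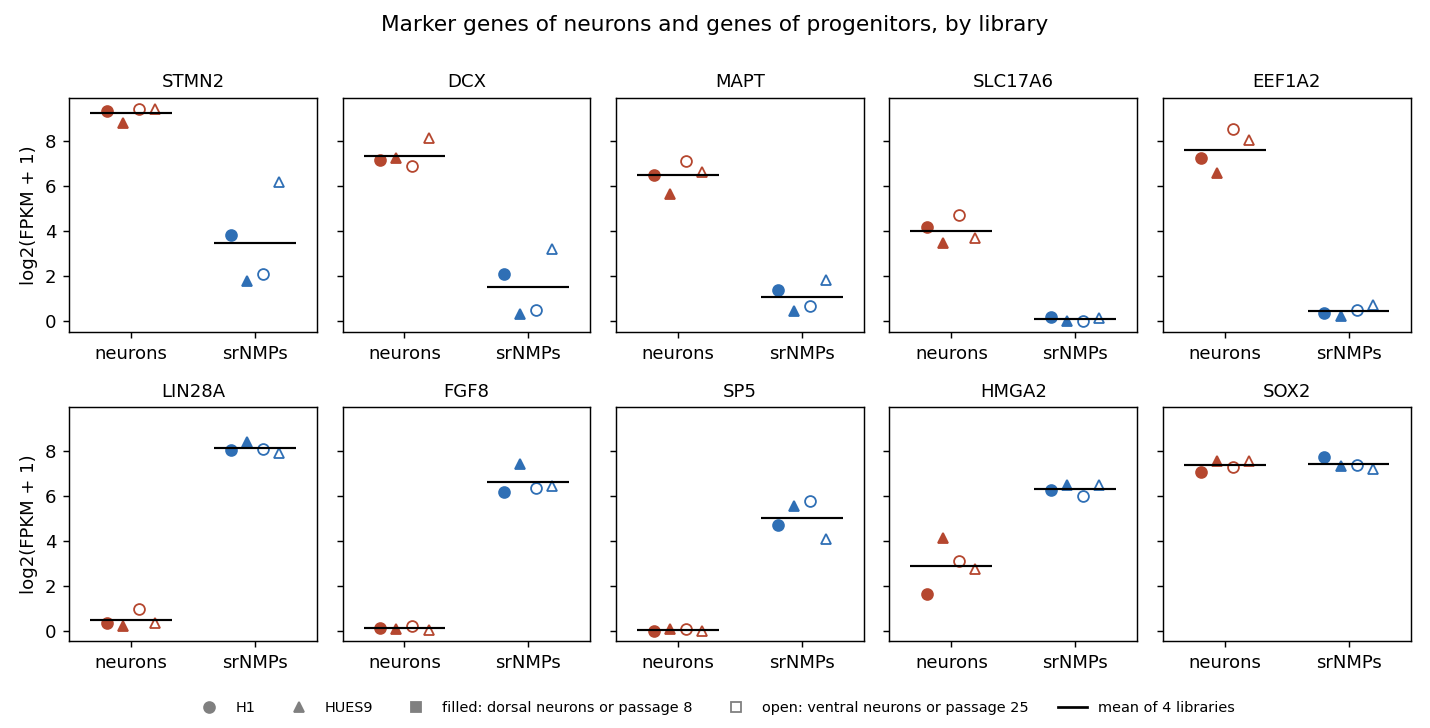
Levels of 5 neuronal markers and 5 genes of progenitors by library, as log2(FPKM + 1), with neurons left and srNMPs right in each panel, circles for H1, triangles for HUES9 and bars for means of 4 libraries. The markers separate the states without overlap, LIN28A, FGF8, SP5 and HMGA2 do so in the other direction, and SOX2 overlaps.

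The largest rises and falls among genes whose states did not overlap, 10 in each direction by rule, include the markers and the genes below, with FGF8, FGF17, SP5 and LEF1 described further on. NSG2, an endosomal protein of neuronal dendrites, averaged 212 ± 105 FPKM in neurons and 0.991 ± 0.929 in srNMPs (SD, n = 4 each; log2 change 6.74 ± 0.37). PCSK1N, a granule protein that inhibits prohormone cleavage, averaged 90.2 ± 26.5 FPKM in neurons and 0.415 ± 0.434 in srNMPs (log2 change 6.01 ± 0.29). LAMP5, a vesicle membrane protein, was at 231, 183, 100.1 and 22.6 FPKM in neurons and at most 0.718 in srNMPs, with a wide spread among the neurons themselves. In the other direction, the RNA-binding protein LIN28A fell most (log2 change -7.63 ± 0.20). PRTG, a guidance receptor family member of the early embryo, was at 0.205, 0.553, 3.02 and 1.27 FPKM in neurons, against 159, 42.4, 61.2 and 101 in srNMPs (log2 change -5.32 ± 0.47). DSP, which anchors keratin filaments at desmosomes, was at 0.0588, 0.0871, 0.0888 and 0.0988 FPKM in neurons, against 24.5, 32.9, 38.6 and 41.5 in srNMPs (log2 change -5.002 ± 0.18). The keratins KRT8 and KRT18, filament proteins of simple epithelia, fell as well (log2 changes -3.82 ± 0.44 and -4.14 ± 0.47). The alkaline phosphatase ALPL averaged 1.23 ± 1.11 FPKM in neurons and 65.0 ± 17.0 in srNMPs, the amyloid-forming melanosome protein PMEL averaged 0.414 ± 0.191 FPKM in neurons and 44.6 ± 18.0 in srNMPs, and the zinc finger factor ZIC2 of early neural tissue averaged 2.08 ± 2.37 FPKM in neurons and 69.5 ± 25.3 in srNMPs (SD, n = 4 each). The absence of overlap in the ranked genes was part of the rule that chose them.

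Genes of the axonal cytoskeleton were higher in most cases, but neurofilament genes were not called. Of 28 tested, 23 were called higher and no gene lower, with a median change of 2.21, and all but 1 reached 1 FPKM in both states. Without HUES9 passage 25 srNMPs 25 were called higher. The dendritic microtubule protein MAP2 was at 179, 117, 110.1 and 122 FPKM in neurons, against 6.62, 5.23, 5.46 and 16.7 in srNMPs (log2 change 3.93 ± 0.34, adjusted p = 0.000125). GAP43, a growth cone protein, was at 136, 111, 192 and 180.0 FPKM in neurons, against 4.11, 11.2, 7.42 and 8.45 in srNMPs (log2 change 4.18 ± 0.28, adjusted p = 5.18e-05). Every neuron library lay above every srNMP library for both. The intermediate filament INA was at 357, 261, 242 and 258 FPKM in neurons, against 29.3, 13.3, 30.4 and 26.4 in srNMPs (log2 change 3.49 ± 0.23, adjusted p = 5.02e-05). TUBB3, the tubulin commonly used to stain neurons, was already abundant in srNMPs. It averaged 558 ± 50.2 FPKM in neurons and 212 ± 69.5 in srNMPs (SD, n = 4 each; log2 change 1.45 ± 0.24, adjusted p = 0.00181). Motor proteins rose too, among them KIF5A, the neuronal kinesin heavy chain (log2 change 4.35 ± 0.39), and KIF1A, which carries synaptic vesicle precursors (log2 change 2.93 ± 0.53). NEFL, the light neurofilament, was at 39.2, 29.5, 476 and 715 FPKM in neurons and 61.0, 64.3, 50.9 and 52.1 in srNMPs. Ventral neurons were well above srNMPs and dorsal neurons below them, so the states overlapped (log2 change 1.31 ± 1.01, adjusted p = 0.31). NEFM had the same order, with 73.1, 50.8, 257 and 592 FPKM in neurons and 115, 89.4, 86.0 and 90.9 in srNMPs (log2 change 0.70 ± 0.70, adjusted p = 0.43). NEFH, the heavy form, was at most 5.19 FPKM in any of the 8 libraries.

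The release machinery of the synapse was present in neurons of both types. Of 28 tested genes of synaptic vesicles and release, 26 were called higher and no gene lower (median change 2.51). Of the 28, 9 reached 1 FPKM in neurons alone, and without HUES9 passage 25 srNMPs 26 were called. The SNARE protein SNAP25 was at 59.1, 37.2, 62.3 and 52.2 FPKM in neurons, against 3.53, 3.94, 4.44 and 4.002 in srNMPs (log2 change 3.41 ± 0.17, adjusted p = 1.71e-05). The vesicle protein SYT4 was at 47.0, 87.5, 196 and 67.4 FPKM in neurons, against 0.889, 0.0419, 0.0442 and 2.87 in srNMPs (log2 change 5.70 ± 0.54, adjusted p = 0.000174). RAB3A, the GTPase of docked vesicles, was at 84.8, 46.2, 123 and 65.3 FPKM in neurons, against 3.93, 0.645, 1.61 and 4.68 in srNMPs (log2 change 4.52 ± 0.41, adjusted p = 0.000136). In all 3 genes the groups did not overlap, and H1 ventral neurons were highest. CPLX2, which clamps the fusion of vesicles, changed by 3.78 ± 0.51. The priming factor UNC13A rose as well (log2 change 3.20 ± 0.23), as did the active-zone proteins BSN and PCLO (log2 changes 2.57 ± 0.24 and 2.27 ± 0.24). VAMP1 and RPH3A did not pass the test (adjusted p = 0.10 and adjusted p = 0.0529). Of 20 tested genes of synaptic adhesion and scaffolds, 13 were called higher (median 1.497), also 13 without HUES9 passage 25 srNMPs. The leucine-rich adhesion protein LRRTM2 was at 23.0, 12.8, 34.6 and 16.2 FPKM in neurons, against 0.0779, 0.0362, 0.0718 and 1.52 in srNMPs (log2 change 4.01 ± 0.39, adjusted p = 0.000180), with no overlap. The presynaptic receptor NRXN2 changed by 3.38 ± 0.33 and the scaffold DLG4 by 1.54 ± 0.21. Among the genes not called were SHANK3, HOMER1, HOMER2, NLGN1, GPHN and CNTNAP2, each with overlapping states and log2 changes from -0.22 to 0.23.

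Most of the ion channels and transmitter receptors tested were higher in neurons. Of 27 voltage-gated channel genes 24 were tested and 22 called higher, but 15 of the 24 reached 1 FPKM in neurons alone. Without HUES9 passage 25 srNMPs 20 were called. The sodium channel SCN3A of developing neurons was at 19.5, 10.6, 15.2 and 25.9 FPKM in neurons, against 0.194, 0.00246, 0.0390 and 0.215 in srNMPs (log2 change 4.02 ± 0.26, adjusted p = 4.66e-05). SCN2A, of the axon initial segment, was at 7.58, 2.92, 10.8 and 8.16 FPKM in neurons, against 0.0364, 0.00257, 0.0408 and 0.0135 in srNMPs (log2 change 2.92 ± 0.29, adjusted p = 0.000218). The auxiliary subunit SCN3B changed by 4.49 ± 0.35. Of 36 receptor genes 30 were tested and 28 called higher, with 19 of the 30 at 1 FPKM in neurons alone and 26 called without HUES9 passage 25 srNMPs. The 3 channel and 6 receptor genes left were below 1 FPKM in all 8 libraries. GRIA2, the AMPA receptor subunit that limits calcium entry, was at 56.6, 10.9, 50.5 and 30.9 FPKM in neurons, against 0.0896, 0.0233, 0.0148 and 0.632 in srNMPs (log2 change 4.81 ± 0.43, adjusted p = 0.000139). GRIN1, the obligatory subunit of NMDA receptors, was at 9.64, 2.83, 8.37 and 6.25 FPKM in neurons, against 0.0101, 0, 0 and 0.00525 in srNMPs (log2 change 2.85 ± 0.27, adjusted p = 0.000165). GLRA2, the embryonic glycine receptor subunit, was at 30.9, 29.1, 25.1 and 15.3 FPKM in neurons, against 0.710, 0.0385, 0.0102 and 0.850 in srNMPs (log2 change 4.23 ± 0.30, adjusted p = 6.06e-05). For these 3 genes the srNMPs were all below 1 FPKM and the neurons all above 2. GRIN2D, a modulatory NMDA receptor subunit of the young nervous system, changed by 3.67 ± 0.23. GRIN2A and GLRB were the 2 receptor genes that did not pass (adjusted p = 0.0672 and adjusted p = 0.11). GLRB, the beta subunit of glycine receptors, was at 4.23, 2.54, 6.43 and 7.00 FPKM in neurons, against 2.63, 3.32, 2.59 and 3.07 in srNMPs, with HUES9 dorsal neurons below every srNMP library. Receptor calls numbered 17 to 30 over the alternatives, and channel calls 16 to 24.

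Genes that set neuron type were split between dorsal and ventral cultures, and few passed over the 4 neuron libraries together. Of 16 dorsal interneuron factors 12 were tested and 1 was called, LHX1, and of 13 motor neuron genes 12 were tested and none was called (limma, 1 at an unadjusted p under 0.05). LHX1, a LIM factor of several interneuron classes, was at 66.4, 70.7, 3.72 and 2.997 FPKM in neurons, against 0, 0.00802, 0.00847 and 0.650 in srNMPs (log2 change 3.93 ± 1.00, adjusted p = 0.0130). PAX2, a factor of inhibitory dorsal interneurons, was at 68.1, 51.5, 2.68 and 0.0529 FPKM in neurons and 27.4, 14.2, 23.9 and 8.31 in srNMPs. The dorsal neurons were above all srNMPs and the ventral neurons below all of them (log2 change -0.71 ± 1.24, adjusted p = 0.66). LBX1, which directs dorsal neurons to an inhibitory association fate, was at 84.6, 70.3, 1.07 and 0.0339 FPKM in neurons and 0.989, 3.49, 2.33 and 9.47 in srNMPs, again with dorsal neurons far above and ventral H1 neurons within the range of srNMPs (log2 change 1.35 ± 1.48, adjusted p = 0.47). POU4F1, of dorsal excitatory interneurons and sensory neurons, was at 47.5, 29.8, 0.399 and 0.218 FPKM in neurons and 4.98, 0.236, 0.703 and 0.248 in srNMPs. The motor neuron factor MNX1 was at 0, 0.262, 10.2 and 30.0 FPKM in neurons and 0.116, 2.38, 1.27 and 1.37 in srNMPs, with both ventral cultures above every other library (log2 change 1.11 ± 1.03, adjusted p = 0.40). LHX3, which drives motor neuron and V2 interneuron programs, was at 0.0553, 0.00912, 13.9 and 10.6 FPKM in neurons and 0, 0, 0 and 0.588 in srNMPs. Its relative LHX4 was at 0.0118, 0.0194, 14.4 and 13.3 FPKM in neurons and 0.0264, 0.0373, 0.0275 and 1.65 in srNMPs. The same split between ventral and dorsal cultures was seen in both. CHAT, which makes acetylcholine, was at 0.0208, 0.0874, 8.04 and 7.63 FPKM in neurons and at most 0.617 in srNMPs. Without the HUES9 dorsal library, 7 of the 12 motor neuron genes were called higher, and over all alternatives 0 to 10 were. EN1, a factor of V1 interneurons and of the midbrain and hindbrain border, fell, with 0.610, 10.9, 3.10 and 12.8 FPKM in neurons, against 52.0, 39.3, 40.5 and 32.2 in srNMPs (log2 change -2.85 ± 0.54, adjusted p = 0.00353). Its relative EN2 fell also (log2 change -3.53 ± 0.55).

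Transmitter genes split along the same line. Of 28 genes 24 were tested, 9 were called higher and no gene lower, and 14 of the 24 reached 1 FPKM in neurons alone. Without HUES9 passage 25 srNMPs 9 were called. The glycine transporter SLC6A5 was at 38.1, 27.9, 4.82 and 0.117 FPKM in neurons and 0.00983, 0.00972, 0 and 1.02 in srNMPs (log2 change 2.95 ± 1.03, adjusted p = 0.0430). The vesicular inhibitory transporter SLC32A1 was at 25.7, 19.1, 3.89 and 0.247 FPKM in neurons and 0.0436, 1.53, 0.102 and 1.22 in srNMPs (log2 change 2.25 ± 0.92, adjusted p = 0.0743). Both were high in dorsal neurons, intermediate in H1 ventral neurons and low in HUES9 ventral neurons. GAD1, which makes GABA, was at 37.3, 15.8, 5.40 and 1.45 FPKM in neurons and 12.8, 45.3, 41.3 and 22.1 in srNMPs (log2 change -1.49 ± 0.80, adjusted p = 0.15). The other isoform, GAD2, was at 21.6, 14.5, 1.42 and 0.228 FPKM in neurons and at most 0.419 in srNMPs. The peptide NPY was high in H1 dorsal neurons and in HUES9 passage 8 srNMPs, with 179.8, 22.7, 0.158 and 0.0541 FPKM in neurons and 1.40, 271, 6.59 and 66.8 in srNMPs. Some transmitter genes were higher in all neurons. The peptide SST was at 40.2, 3.35, 97.5 and 329 FPKM in neurons, against 0.641, 0.272, 0 and 0.714 in srNMPs (log2 change 5.16 ± 1.13, adjusted p = 0.00683), lowest in HUES9 dorsal and highest in HUES9 ventral neurons. TAC1, the precursor of substance P, changed by 3.05 ± 0.41.

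**Figure D3:**
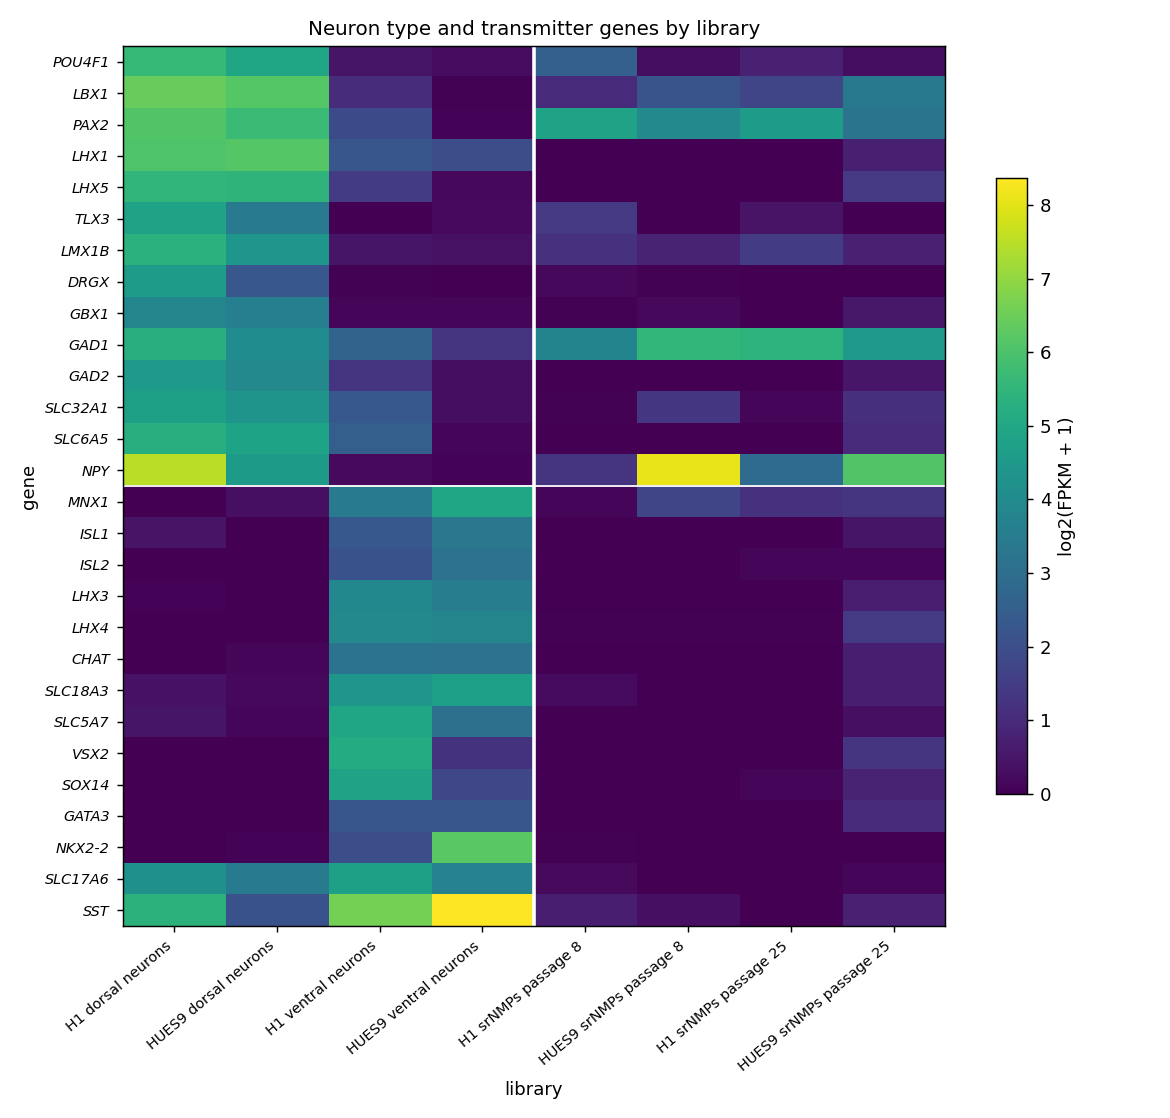
Levels of 28 genes of neuron type and transmitter identity in the 4 neuron (left) and 4 srNMP (right) libraries, as log2(FPKM + 1). The upper 14 are mainly high in dorsal neurons, the next 12 are mainly high in ventral neurons, and SLC17A6 and SST at the bottom are high in all or most neurons.

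Most factors of neuronal differentiation that were tested rose, with NEUROG2 and NEUROD1 among those that were not called. Of 21 tested neurogenic factors, 16 were called higher and no gene lower (median 2.74), with 5 at 1 FPKM in neurons alone, and 17 were called higher without HUES9 passage 25 srNMPs. SOX4, a factor of young neurons, was at 317, 215, 101 and 79.0 FPKM in neurons, against 17.2, 15.2, 14.8 and 24.6 in srNMPs (log2 change 3.05 ± 0.43, adjusted p = 0.000946). Dorsal neurons were above ventral ones, and all lay above all srNMPs. MYT1, a zinc finger factor of committed neural cells, changed by 4.23 ± 0.40, SCRT2 by 4.34 ± 0.64 and SCRT1 by 4.05 ± 0.57. NEUROG2, a proneural factor of dividing precursors, was at 14.5, 18.7, 2.13 and 2.54 FPKM in neurons and 1.72, 10.7, 3.65 and 11.6 in srNMPs, with overlapping states (log2 change 0.21 ± 0.67, adjusted p = 0.81). NEUROD1, a factor of differentiating neurons, was at 1.001, 0.127, 5.31 and 6.80 FPKM in neurons and 0.0557, 0.0220, 0.0582 and 5.49 in srNMPs (log2 change 0.98 ± 0.79, adjusted p = 0.33). NEUROG1, NEUROD4 and PTF1A were not called either.

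A repressor of neuronal genes fell, and a repressor of other programs rose. REST, which silences neuronal genes in other cells by binding a sequence called RE1, was at 4.62, 5.48, 3.92 and 4.55 FPKM in neurons, against 8.98, 7.96, 6.81 and 7.16 in srNMPs. All neurons were below all srNMPs, by less than 1 log2 unit (log2 change -0.63 ± 0.16, adjusted p = 0.0117). With equal sums its change was -0.35 and was not called. MYT1L, which represses non-neuronal genes in neurons, was at 11.4, 4.27, 8.43 and 7.56 FPKM in neurons, against 0.0171, 0, 0.00397 and 0.0890 in srNMPs (log2 change 3.05 ± 0.24, adjusted p = 8.43e-05). RE1 was searched as CAGCACC, any 2 bases and GGACAG, on both strands, from 250 bases before to 50 after each RefSeq gene start. Of the 13265 tested genes 10702 had such a window, and 9 of them (0.0841%) held the letters. The 9 matches are shown with 5 bases on each side, since they name the genes that the next values describe. Capitals mark RE1, the build is GRCh38.p14 of RefSeq, and each line is written in the direction in which it reads as RE1.
UCN (chr2:27308598-27308622, minus strand): ggggtCAGCACCATGGACAGcctca
GRIA2 (chr4:157220387-157220411, minus strand): cctttCAGCACCGAGGACAGcgcct
LHX3 (chr9:136205134-136205158, minus strand): tccttCAGCACCGCGGACAGcgcca
GAD2 (chr10:26216288-26216312, plus strand): tgtggCAGCACCCGGGACAGcggcc
OGDHL (chr10:49762420-49762444, minus strand): gccgcCAGCACCGTGGACAGcgcca
RPH3A (chr12:112791547-112791571, minus strand): gcggtCAGCACCACGGACAGcgcta
TMEM179 (chr14:104604890-104604914, plus strand): gcggtCAGCACCGCGGACAGctcct
TTC9B (chr19:40218347-40218371, plus strand): agcatCAGCACCGGGGACAGcgcgc
SYN1 (chrX:47620069-47620093, minus strand): agcttCAGCACCGCGGACAGtgcct
Of these 9 genes, 4 were called higher, 5 were not called and none was lower, against 26.2% higher and 21.9% lower over all genes tested. Among genes with a window, the letters were in 4 of 2753 called higher (0.145%) and 5 of 5569 not called (0.0898%). They were in 0 of 2380 called lower. Whether the letters go with a call was not tested, and the counts are small. GRIA2 is described above. SYN1, which tethers synaptic vesicles, was at 11.1, 5.90, 27.4 and 15.1 FPKM in neurons, against 0.519, 0.188, 0.768 and 0.657 in srNMPs (log2 change 3.20 ± 0.36, adjusted p = 0.000332). TTC9B was at 8.26, 4.28, 14.0 and 6.58 FPKM in neurons, against 0.0246, 0, 0 and 0.281 in srNMPs (log2 change 3.01 ± 0.28, adjusted p = 0.000162). TMEM179 was at 3.41, 2.89, 3.38 and 4.94 FPKM in neurons, against 0.128, 0.0861, 0.307 and 0.345 in srNMPs (log2 change 1.92 ± 0.19, adjusted p = 0.000213). In all 4 every neuron library was above every srNMP library. UCN, LHX3, GAD2, OGDHL and RPH3A were not called, with adjusted p of 0.0617, 0.16, 0.0537, 0.0587 and 0.0529. Their mean FPKM were 1.35, 6.13, 9.42, 3.74 and 0.988 in neurons, and 0.382, 0.147, 0.110, 0.810 and 0.00272 in srNMPs. The 250 bases before the start of SYN1 (chrX:47619858-47620107, minus strand) show where RE1 lies, 231 bases before the start.
SYN1: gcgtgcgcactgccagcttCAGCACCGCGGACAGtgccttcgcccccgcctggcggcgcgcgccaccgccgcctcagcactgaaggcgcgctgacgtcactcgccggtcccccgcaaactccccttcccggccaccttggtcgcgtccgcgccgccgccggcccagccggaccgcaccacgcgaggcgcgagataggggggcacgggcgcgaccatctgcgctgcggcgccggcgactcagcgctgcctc

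Most neuronal regulators of splicing rose, and PTBP1 fell. Of 21 tested RNA-binding genes 16 were called higher and 1 lower (median 2.17), the same numbers as without HUES9 passage 25 srNMPs. The one that fell was PTBP1, which holds neuronal exons out of transcripts, at 38.8, 66.1, 39.2 and 32.5 FPKM in neurons, against 154, 115, 164 and 151 in srNMPs (log2 change -1.74 ± 0.24, adjusted p = 0.000782). Its neuronal relative PTBP2 was at 59.3, 60.4, 31.8 and 51.7 FPKM in neurons and 26.1, 25.6, 19.9 and 34.1 in srNMPs (log2 change 0.90 ± 0.22, adjusted p = 0.0101), with H1 ventral neurons inside the range of srNMPs. ELAVL3, which stabilises neuronal transcripts, was at 112, 84.7, 74.3 and 58.8 FPKM in neurons, against 2.47, 0.263, 0.626 and 6.40 in srNMPs (log2 change 4.92 ± 0.53, adjusted p = 0.000294). CELF5 changed by 4.25 ± 0.20, CELF3 by 4.24 ± 0.30 and SRRM4, an activator of neuronal microexons, by 3.35 ± 0.43. KHDRBS2, KHDRBS3, MBNL1 and MBNL2 were not called.

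For 27 pairs of genes, a form taken as neuronal was set against the other as a share of their summed FPKM. Most pairs are related genes. The counts also hold LMNA with LMNB1, where LMNA is not a form typical of neurons, and MYT1L with REST, which are not related genes. In both of these the states did not overlap, and LMNA and MYT1L were called higher and their partners lower. These shares do not depend on the scale of a library. In 19 pairs the neuronal share was higher in every neuron library than in any srNMP library, in 8 pairs the states overlapped, and in no pair was it lower without overlap. In 10 pairs the neuronal form was called higher and its partner lower. ACTL6B, the neuronal actin-like subunit of BAF chromatin remodelers, made up 55.6% ± 11.5 in neurons and 0.359% ± 0.485 in srNMPs of its sum with ACTL6A (SD, n = 4 each). DPF1, of the same complex, made up 57.3% ± 7.53 in neurons and 12.2% ± 4.96 in srNMPs of its sum with PHF10. The enolase ENO2 made up 41.9% ± 6.65 in neurons and 5.17% ± 1.83 in srNMPs of its sum with ENO1, and the SNARE SNAP25 93.6% ± 1.54 in neurons and 27.9% ± 5.20 in srNMPs of its sum with SNAP23. EEF1A2 had the largest log2 change but remained a small share of its sum with EEF1A1, 8.49% ± 4.21 in neurons and 0.0100% ± 0.00640 in srNMPs. The polycomb enzyme EZH1 made up 50.8% ± 17.8 in neurons and 18.1% ± 5.41 in srNMPs of its sum with EZH2, and DNMT3A 42.6% ± 9.34 in neurons and 20.8% ± 4.28 in srNMPs of its sum with DNMT3B. In the pairs DPYSL3 with DPYSL4, LDHB with LDHA, ALDOC with ALDOA, NEFM with VIM, CKMT1B with CKB, SLC2A3 with SLC2A1, ELAVL4 with ELAVL1 and CDK5 with CDK1 the states overlapped. TUBB2A and CKMT1B have near-identical copies and EEF1A1 has many pseudogenes, so how their reads were assigned is uncertain.

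**Figure D4:**
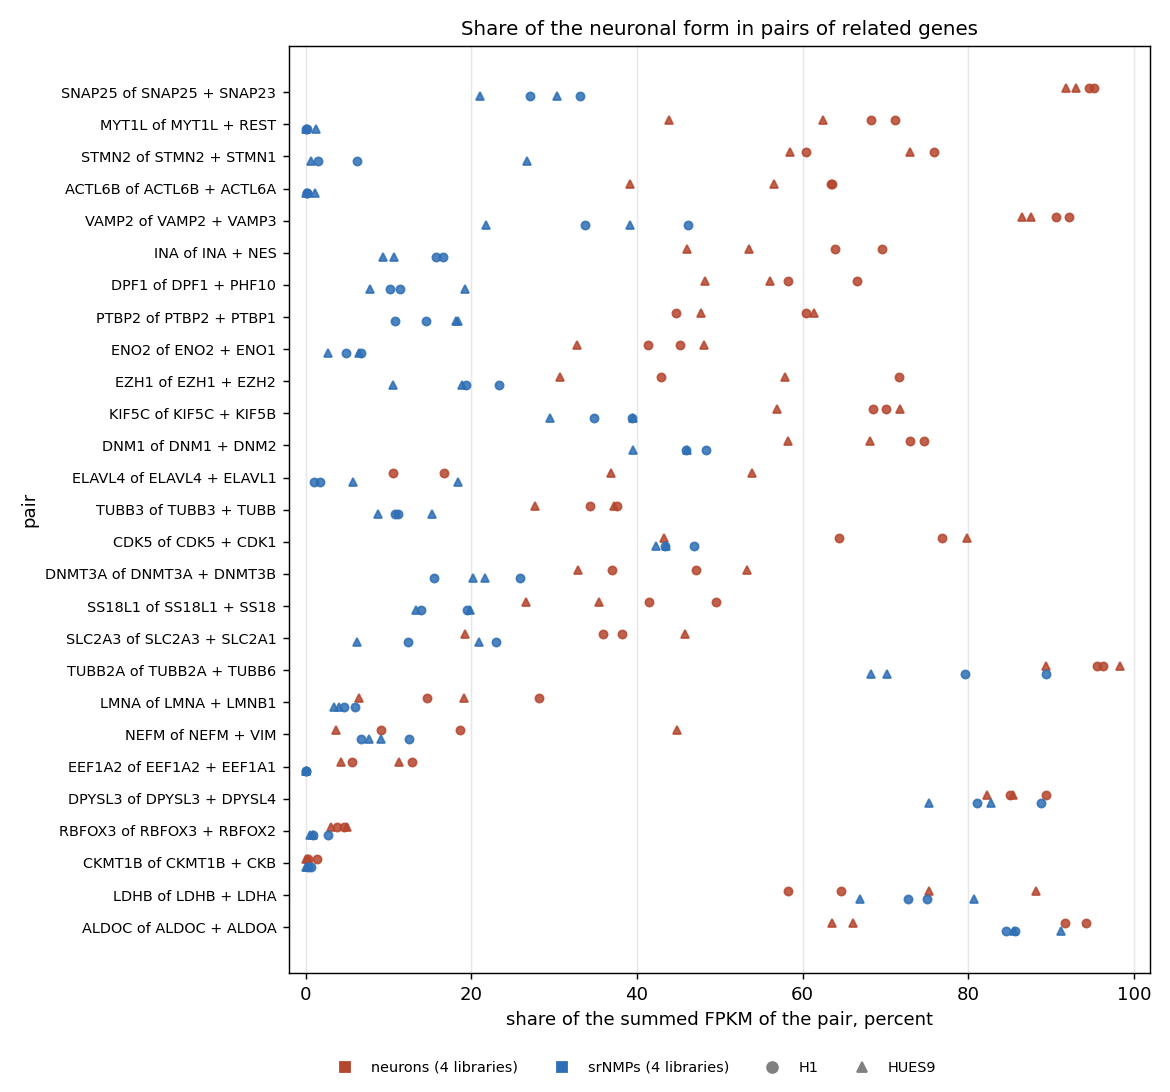
Share of the form taken as neuronal in the summed FPKM of 27 pairs of genes, in percent. Each row has 4 neuron libraries (red) above 4 srNMP libraries (blue), with circles for H1 and triangles for HUES9. Pairs are sorted by the difference of the means. The largest separation of means is that of SNAP25, and 8 pairs overlap.

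Guidance receptors and adhesion molecules of axons rose broadly. Of 43 tested, 28 were called higher and no gene lower (median 1.66). Of the 43, 10 reached 1 FPKM in neurons alone, and without HUES9 passage 25 srNMPs 27 were called higher. EPHA3, an ephrin receptor, was at 34.5, 15.9, 86.4 and 128 FPKM in neurons, against 0.107, 0.0966, 0.0742 and 0.351 in srNMPs (log2 change 5.47 ± 0.58, adjusted p = 0.000262). L1CAM, an adhesion molecule of axon bundles, was at 79.0, 56.6, 129 and 88.1 FPKM in neurons, against 1.91, 1.14, 0.713 and 3.95 in srNMPs (log2 change 4.99 ± 0.37, adjusted p = 7.24e-05). The states did not overlap in either gene. The repellent SLIT1 changed by 4.86 ± 0.73. The netrin receptor DCC was at 34.5, 26.5, 13.9 and 17.5 FPKM in neurons, against 5.23, 0.239, 0.496 and 3.42 in srNMPs (log2 change 3.09 ± 0.55, adjusted p = 0.00270). NTN1, its ligand, was at 3.65, 35.8, 61.5 and 154 FPKM in neurons, against 0.315, 0.429, 0.192 and 13.1 in srNMPs (log2 change 3.92 ± 0.95, adjusted p = 0.0104). H1 dorsal neurons held the least NTN1 of the neurons, below the HUES9 passage 25 srNMPs. ROBO3, a receptor of commissural axons, changed by 3.24 ± 0.78 with overlapping states. SEMA3A, a repellent, was at 2.40, 2.29, 14.1 and 13.1 FPKM in neurons and 19.1, 14.8, 14.2 and 10.1 in srNMPs and was not called (log2 change -1.12 ± 0.55, adjusted p = 0.12). Over the alternatives 20 to 33 genes of the list were called higher and 0 to 3 lower, with the 3 lower calls after quantile normalization.

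Growth factors and WNT targets of the tail bud that are expressed in neuromesodermal progenitors fell, while SOX2 was not called. Of 19 listed genes of this state 13 were tested, 10 were called lower and no gene higher. Of the 13, 7 reached 1 FPKM in srNMPs alone, and the 6 genes left were below 1 FPKM in all 8 libraries. FGF8, a growth factor of the tail bud, was at 0.0959, 0.0474, 0.169 and 0.0248 FPKM in neurons, against 71.4, 171, 80.8 and 86.3 in srNMPs (log2 change -6.49 ± 0.25, adjusted p = 1.11e-05). FGF17, of the same family, was at 1.41, 2.06, 2.58 and 1.78 FPKM in neurons, against 78.6, 243, 139.7 and 100.3 in srNMPs (log2 change -5.46 ± 0.32, adjusted p = 3.18e-05). SP5, a direct target of WNT, was at 0, 0.0453, 0.0554 and 0 FPKM in neurons, against 25.1, 45.2, 52.9 and 16.0 in srNMPs (log2 change -4.98 ± 0.34, adjusted p = 5.69e-05). All 4 srNMP libraries were at least 16 FPKM in these 3 genes and no neuron library reached 3 FPKM. TBXT was at 0.0113, 0.135, 0 and 0 FPKM in neurons, against 2.11, 13.4, 1.87 and 7.39 in srNMPs (log2 change -2.47 ± 0.37, adjusted p = 0.00126). CDX2 was at 0.0128, 0, 0 and 0 FPKM in neurons, against 0.00615, 39.0, 11.5 and 21.8 in srNMPs (log2 change -3.36 ± 0.85, adjusted p = 0.0126), and the near-absence in H1 passage 8 srNMPs made the states overlap. HES3 changed by -4.45 ± 0.35 and WNT5A, a non-canonical WNT ligand, by -2.78 ± 0.45. SOX2 was at 133, 185, 154 and 183 FPKM in neurons and 213, 161, 165 and 147 in srNMPs, with full overlap (log2 change -0.06 ± 0.17, adjusted p = 0.78). SP8 and CYP26A1 were not called.

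More feedback genes of WNT and FGF signals fell than rose. Of 23 tested, 13 were called lower and 2 higher (median -1.06). LEF1, a nuclear effector and target of WNT, was at 0.455, 1.88, 0.0534 and 0.0219 FPKM in neurons, against 32.8, 54.7, 47.6 and 26.3 in srNMPs (log2 change -4.77 ± 0.37, adjusted p = 8.58e-05). AXIN2, an inhibitor that WNT induces, was at 10.3, 12.8, 2.41 and 4.60 FPKM in neurons, against 24.9, 22.9, 33.9 and 21.1 in srNMPs (log2 change -1.83 ± 0.43, adjusted p = 0.00902). IL17RD, an antagonist of FGF signalling, was at 7.11, 8.64, 7.53 and 6.54 FPKM in neurons, against 79.9, 79.8, 57.9 and 52.1 in srNMPs (log2 change -2.998 ± 0.19, adjusted p = 4.04e-05), and the states were apart in all 3. SPRY1 and SPRY2, inhibitors that FGF induces, changed by -2.77 ± 0.24 and -2.74 ± 0.26, and the phosphatase DUSP6 by -2.82 ± 0.38. DUSP4, a related phosphatase, went the other way, at 34.2, 24.6, 40.6 and 34.3 FPKM in neurons, against 11.4, 8.43, 9.44 and 11.7 in srNMPs (log2 change 1.60 ± 0.18, adjusted p = 0.000334), as did SPRED3 (log2 change 1.79 ± 0.22). LGR5, NKD1, ETV1 and 5 more genes had overlapping states and no call.

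LIN28A, LIN28B and other genes of early embryonic cells fell. LIN28A and LIN28B block the maturation of a microRNA family that restrains growth and fetal genes. Of 11 genes tested, 9 were called lower and no gene higher (median -2.71). LIN28A was at 0.260, 0.150, 0.976 and 0.284 FPKM in neurons, against 261, 337, 271 and 235 in srNMPs (log2 change -7.63 ± 0.20, adjusted p = 1.99e-06). LIN28B was at 1.53, 2.41, 3.40 and 1.74 FPKM in neurons, against 37.7, 27.4, 28.7 and 27.8 in srNMPs (log2 change -3.29 ± 0.21, adjusted p = 4.04e-05). HMGA2, a chromatin protein of fetal cells, was at 2.06, 16.2, 7.57 and 5.73 FPKM in neurons, against 76.2, 86.7, 63.2 and 86.7 in srNMPs (log2 change -3.40 ± 0.39, adjusted p = 0.000385). Neurons and srNMPs were separate in all 3, and HMGA2 was highest among neurons in the HUES9 dorsal culture. TRIM71 changed by -3.22 ± 0.17, SALL4 by -2.87 ± 0.37 and HMGA1 by -2.43 ± 0.26. IGF2BP2 and DNMT3B were not called, with adjusted p of 0.0867 and 0.13.

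Genes of neural progenitors did not move as a block. Of 24 tested, 6 were called higher, 3 lower and 15 neither way (median 0.32). Over all genes tested the shares were 26.2% higher and 21.9% lower. Neither share of the list was above that of all genes, so these counts do not set it apart as changed. SOX9, a factor of radial glia, was at 46.8, 67.5, 45.4 and 57.4 FPKM in neurons, against 0.452, 1.45, 1.203 and 6.68 in srNMPs (log2 change 4.29 ± 0.36, adjusted p = 0.000111), with the highest srNMP value in HUES9 passage 25. The receptor NOTCH1 was at 52.3, 127, 41.7 and 79.7 FPKM in neurons, against 12.9, 6.92, 12.2 and 29.9 in srNMPs (log2 change 2.26 ± 0.41, adjusted p = 0.00293). Its target HES1 was at 13.9, 31.6, 9.64 and 16.8 FPKM in neurons, against 5.98, 8.77, 6.43 and 4.82 in srNMPs (log2 change 1.24 ± 0.29, adjusted p = 0.00907). HUES9 dorsal neurons were highest in all 3. ID4, an inhibitor of bHLH factors, rose (log2 change 3.01 ± 0.50), while its relative ID3 fell, with 3.85, 8.03, 6.93 and 4.46 FPKM in neurons, against 40.9, 171, 105 and 84.6 in srNMPs (log2 change -3.77 ± 0.38, adjusted p = 0.000213). The filament proteins NES and VIM were not called (adjusted p = 0.34 and adjusted p = 0.83). NES averaged 206 ± 76.6 FPKM in neurons and 165 ± 39.8 in srNMPs, and VIM averaged 976 ± 298 FPKM in neurons and 999.6 ± 174 in srNMPs (SD, n = 4 each). PAX6, a factor of the neural tube, was at 3.42, 8.17, 6.17 and 1.46 FPKM in neurons and 0.178, 0.324, 0.161 and 24.5 in srNMPs. It was low in 3 of 4 srNMP libraries and high in HUES9 passage 25 (log2 change 0.99 ± 0.94, adjusted p = 0.41).

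HOX genes, which encode position along the body, rose in part in paralog groups 1 to 5 and 6 to 9, and HOXB1 fell. Of 15 tested genes of paralog groups 1 to 5, 7 were called higher (46.7%) and 1 lower. Of 12 in groups 6 to 9, 5 were called higher (41.7%). Over all genes tested, 26.2% were called higher. HOXB1, an early gene of the hindbrain and tail bud, was at 0.328, 1.17, 0.0144 and 0.561 FPKM in neurons, against 21.8, 36.0, 25.03 and 28.0 in srNMPs (log2 change -4.27 ± 0.18, adjusted p = 1.44e-05). HOXA5 was at 43.0, 91.8, 33.2 and 82.0 FPKM in neurons, against 4.29, 9.34, 14.3 and 3.36 in srNMPs (log2 change 2.91 ± 0.46, adjusted p = 0.00160), and HOXB5 changed by 2.48 ± 0.40. HOXB6 was at 175, 177, 65.5 and 98.5 FPKM in neurons, against 32.6, 30.0, 29.8 and 31.1 in srNMPs (log2 change 1.91 ± 0.31, adjusted p = 0.00176). The states were apart in these genes. HOXA6 and HOXC9 changed by 3.10 ± 0.53 and 3.03 ± 0.68. HOXC8 was at 23.0, 39.9, 87.2 and 42.8 FPKM in neurons, against 0.218, 13.1, 7.93 and 3.92 in srNMPs (log2 change 3.07 ± 0.71, adjusted p = 0.00844), with H1 passage 8 srNMPs lowest. HOXB9 was abundant in both states, at 880.0, 493, 186 and 154 FPKM in neurons and 389, 269.9, 375 and 203 in srNMPs (log2 change 0.16 ± 0.50, adjusted p = 0.81). None of the 3 tested genes of groups 10 to 13 was called (limma, none at an unadjusted p under 0.05), and HOXA10 and HOXC10 were higher in each HUES9 culture than in the H1 culture of the same kind. HOXA10 was at 0.160, 25.5, 0 and 17.1 FPKM in neurons and 0.0109, 3.38, 0.571 and 3.43 in srNMPs. HOXC10 was at 0.162, 51.6, 0.163 and 23.2 FPKM in neurons and 0, 14.6, 0.661 and 8.01 in srNMPs. HUES9 cultures held both genes in neurons and srNMPs, and H1 cultures stayed below 1 FPKM. HOXD10 was at 0.0163, 1.67, 0 and 4.24 FPKM in neurons and 0, 0, 0 and 0.696 in srNMPs, and so was above 1 FPKM in HUES9 neurons alone. A test of whether the change between the states differed between the lines called 0 of 13265 genes (limma interaction, 0%, 483 at an unadjusted p under 0.05, smallest adjusted p 0.19), which does not show that the lines changed alike. For HOXA10 this difference was 2.54 ± 0.43, adjusted p = 0.62, and for HOXC10 it was 1.74 ± 0.64, adjusted p = 0.99.

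**Figure D5:**
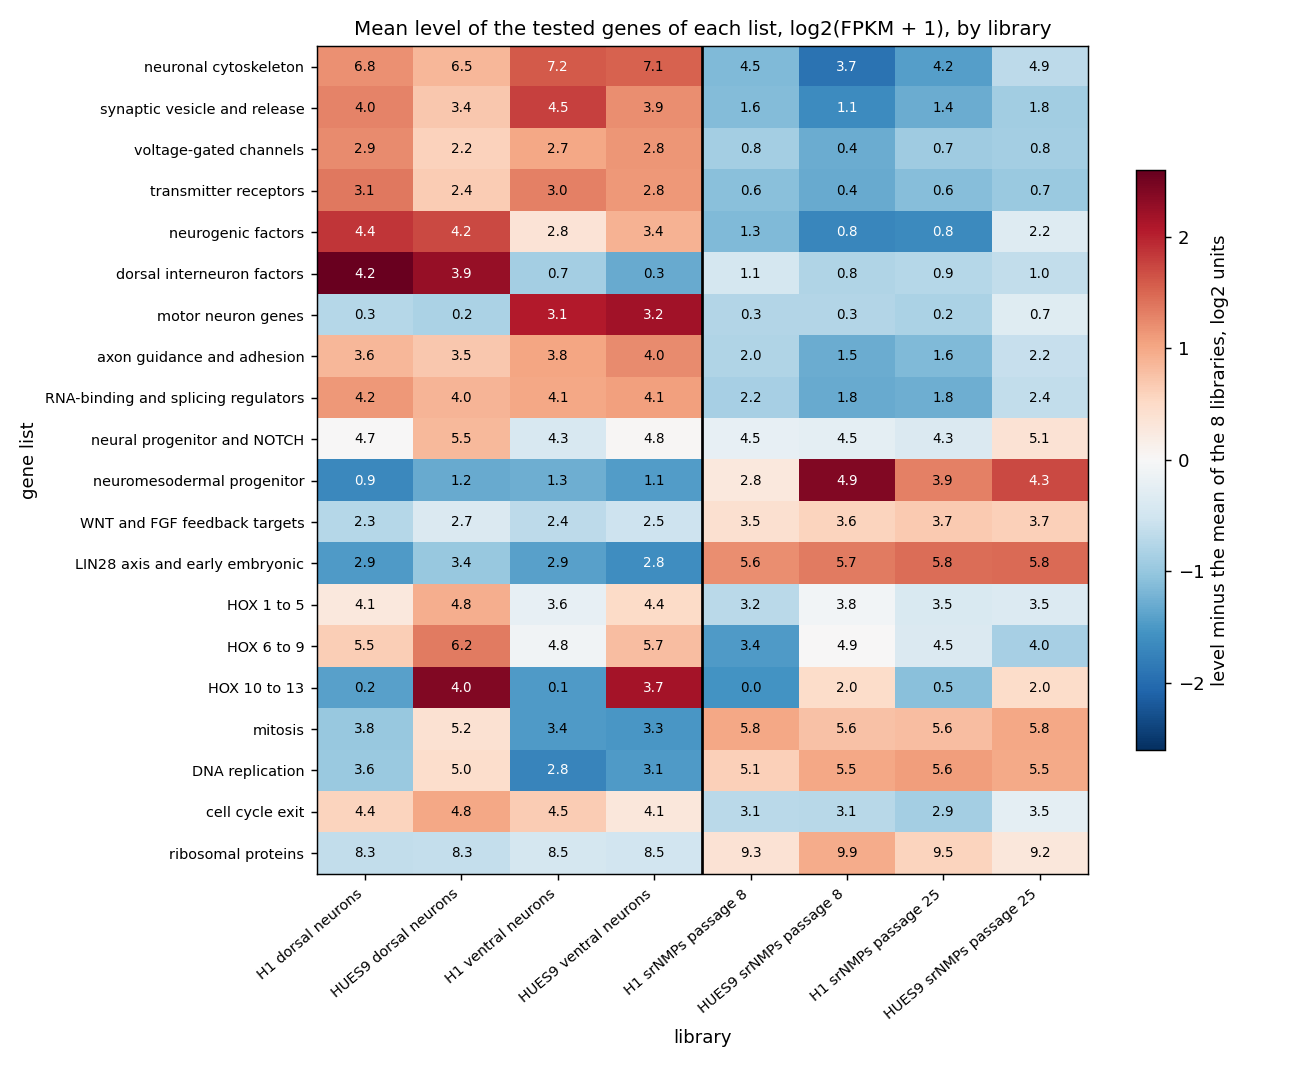
Mean level of the tested genes of 20 lists in the 4 neuron (left) and 4 srNMP (right) libraries, as log2(FPKM + 1). Colour gives the distance from the mean of the 8 libraries in log2 units. HUES9 dorsal neurons stand above the other neurons for mitosis and DNA replication, and dorsal and ventral neurons differ in the interneuron and motor neuron lists.

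Cell division genes fell in neurons, least in the HUES9 dorsal culture. Of 22 tested mitosis genes 21 were called lower (median -1.89), and of 24 DNA replication genes 22 were (median -1.92), with no gene higher in either. CCNB2, a cyclin of mitosis, was at 20.8, 53.2, 15.7 and 14.7 FPKM in neurons, against 105, 122, 88.2 and 97.6 in srNMPs (log2 change -2.13 ± 0.35, adjusted p = 0.00189). AURKA, a kinase of the spindle pole, was at 4.47, 12.6, 3.59 and 3.20 FPKM in neurons, against 28.9, 32.3, 33.7 and 33.2 in srNMPs (log2 change -2.42 ± 0.34, adjusted p = 0.000873). ORC1, which marks origins of replication, was at 3.40, 8.93, 1.37 and 1.49 FPKM in neurons, against 21.1, 18.9, 24.5 and 23.9 in srNMPs (log2 change -2.52 ± 0.42, adjusted p = 0.00202). MCM3, part of the replicative helicase, was at 19.7, 54.2, 10.98 and 14.4 FPKM in neurons, against 89.5, 118, 121 and 109.6 in srNMPs (log2 change -2.36 ± 0.40, adjusted p = 0.00203). In all 4 genes HUES9 dorsal neurons were the highest neurons and still below every srNMP library. AURKB and CCNB1 of the mitosis list changed by -2.26 ± 0.42 and -2.24 ± 0.33, and MCM2 and GINS2 of the replication list by -2.37 ± 0.46 and -2.39 ± 0.41. MKI67, the common marker of dividing cells, was at 22.2, 67.2, 9.75 and 15.3 FPKM in neurons and 63.6, 16.2, 41.5 and 65.0 in srNMPs. HUES9 dorsal neurons were above every srNMP library and HUES9 passage 8 srNMPs fell among the neurons, and the states overlapped (log2 change -0.87 ± 0.62, adjusted p = 0.27). E2F1 and POLA1 were not called either. The mean level of the mitosis list was 5.23 in HUES9 dorsal neurons, 3.32 to 3.85 in the other neurons and 5.59 to 5.84 in srNMPs, on the log2(FPKM + 1) scale. Without that library 22 of 22 mitosis and 24 of 24 replication genes were called lower, with medians of -2.30 and -2.35. With equal sums the counts were 17 and 18, and over the alternatives they were 10 to 22 and 13 to 24.

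Promoters of the division genes held 3 known motifs in different shares. The CHR, bound by the DREAM complex that represses genes of mitosis in resting cells, was searched as TTTGAA. The CCAAT box, bound by NF-Y, was searched as CCAAT, and the E2F site as TTTCCCGC, all on both strands in the windows given above. The CHR letters were in 11 of 17 mitosis genes with a window (64.7%), in 1 of 21 replication genes and in 13.9% of all tested genes with a window. CCAAT was in 15 of 17 mitosis genes (88.2%), 16 of 21 replication genes (76.2%) and 43.8% of all. The E2F letters were in 8 of 21 replication genes (38.1%), 1 of 17 mitosis genes and 3.19% of all. Among all genes called lower the 3 motifs were in 15.7%, 45.8% and 4.03%. These are matches of letters, and no binding was measured. The 250 bases before the starts of CCNB2 (chr15:59104896-59105145, plus strand) and MCM3 (chr6:52284743-52284992, minus strand) are shown because each holds the letters typical of its list. Capitals mark CCAAT on either strand in both, the CHR in CCNB2 and the E2F letters in MCM3, and no motifs overlap in these sequences.
CCNB2: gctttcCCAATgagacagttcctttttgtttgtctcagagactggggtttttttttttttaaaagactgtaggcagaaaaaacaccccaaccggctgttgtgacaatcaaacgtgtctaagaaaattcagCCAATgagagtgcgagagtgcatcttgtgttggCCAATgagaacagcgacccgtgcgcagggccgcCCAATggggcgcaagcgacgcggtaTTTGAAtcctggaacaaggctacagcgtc
MCM3: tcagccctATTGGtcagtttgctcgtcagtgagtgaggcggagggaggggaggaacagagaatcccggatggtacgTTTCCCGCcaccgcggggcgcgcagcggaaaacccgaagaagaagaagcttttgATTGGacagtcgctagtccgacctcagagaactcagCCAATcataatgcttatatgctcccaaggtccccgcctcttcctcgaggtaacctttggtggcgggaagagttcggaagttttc
In CCNB2 the CHR began 29 bases before the start, and the CCAAT boxes 244, 120, 87 and 54 bases before it. In MCM3 the E2F letters began 174 bases before the start, and CCAAT boxes lay 242, 120 and 84 bases before it.

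Genes that act on leaving the cell cycle were higher in neurons in part. Of 16 tested, 8 were called higher and 1 lower (median 1.13). CDK5R2, an activator of the neuronal kinase CDK5, was at 10.05, 8.17, 19.96 and 16.0 FPKM in neurons, against 0.0669, 0.0110, 0.0583 and 0.383 in srNMPs (log2 change 3.62 ± 0.28, adjusted p = 8.58e-05). The other activator, CDK5R1, changed by 3.27 ± 0.22. The kinase CDK5 itself was not called (log2 change 0.02 ± 0.18, adjusted p = 0.94). The inhibitor CDKN2D was at 28.0, 28.8, 48.3 and 29.8 FPKM in neurons, against 2.57, 1.58, 1.63 and 4.03 in srNMPs (log2 change 3.35 ± 0.28, adjusted p = 0.000105), and CDKN1C changed by 1.90 ± 0.29. States were apart for these inhibitors and activators. CDKN1A, the inhibitor known as p21, was at 5.53, 13.5, 79.7 and 3.70 FPKM in neurons and 2.79, 4.02, 3.59 and 13.7 in srNMPs, high in H1 ventral neurons, and was not called. CCND2, a cyclin that drives entry into the cycle, fell (log2 change -1.45 ± 0.44), but by -1.14 and without a call with equal sums. CCND1 was at 70.4, 232, 11.6 and 3.90 FPKM in neurons and 59.9, 39.8, 43.4 and 51.6 in srNMPs, with the HUES9 dorsal neurons highest and the HUES9 ventral neurons lowest of all 8 (log2 change -0.63 ± 1.07, adjusted p = 0.65).

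Transcripts of the ribosome were lower in neurons in nearly every gene, by an amount that the scale of the data moves. Of 76 tested ribosomal protein genes 75 were called lower (median -1.07). The counts were 71 with equal sums and 45 after quantile normalization, with medians of -0.74 and -0.43. Their summed FPKM were 35549 to 40654 in neurons and 71142 to 109433 in srNMPs, so these genes are themselves part of the difference between the sums. RPLP0, of the ribosomal stalk, was at 740.4, 918, 991 and 946 FPKM in neurons, against 2392, 2832, 2549.6 and 2309 in srNMPs (log2 change -1.49 ± 0.15, adjusted p = 0.000197), with no overlap. RPL41 and RPS2, of the large and the small subunit, changed by -1.64 ± 0.19 and -1.53 ± 0.18. Changes ran from -1.73 for RPL12 to -0.61 for RPL15, and many of these genes have pseudogene copies that can share reads. Of 15 genes of ribosome assembly 12 were called lower and 1 higher. The nucleolar chaperone NPM1 was at 217, 225, 182 and 170.3 FPKM in neurons, against 789, 1315, 978 and 854 in srNMPs (log2 change -2.29 ± 0.19, adjusted p = 0.000107). FBL, which methylates ribosomal RNA, changed by -1.87 ± 0.20. The factor MYCN, an activator of such genes in neural precursors, was at 14.4, 16.9, 12.6 and 13.004 FPKM in neurons, against 42.5, 52.0, 50.1 and 40.1 in srNMPs (log2 change -1.63 ± 0.16, adjusted p = 0.000174). Its relative MYC was the 1 gene called higher, at 2.71, 2.37, 4.43 and 4.11 FPKM in neurons, against 0.830, 0.559, 0.649 and 2.31 in srNMPs (log2 change 1.12 ± 0.29, adjusted p = 0.0138).

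Metabolic genes moved in smaller numbers. Of 19 tested glycolysis genes, 9 were called lower and 2 higher (4 higher and 6 lower with equal sums). The glucose transporter SLC2A1 was at 14.7, 28.7, 77.1 and 14.0 FPKM in neurons, against 164, 163, 161 and 443 in srNMPs (log2 change -2.95 ± 0.57, adjusted p = 0.00394). HK1 and ENO2, the forms typical of neurons, rose (log2 changes 1.09 ± 0.24 and 2.31 ± 0.36), while ENO1, the general enolase, fell (log2 change -1.45 ± 0.25). H1 ventral neurons were the highest neurons for SLC2A1, HK2 and ENO1. Of 21 tested genes of oxidative phosphorylation 8 were called lower (median -0.35), but 3 lower and 1 higher with equal sums. UQCRC1, of complex III, COX8A, of complex IV, and ATP5F1A, of the ATP synthase, fell (log2 changes -1.01 ± 0.15, -0.78 ± 0.16 and -0.68 ± 0.12). Of 15 cholesterol synthesis genes 6 were called lower, led by FDPS (log2 change -1.55 ± 0.19), which makes farnesyl diphosphate, but 3 with equal sums, where the median was -0.09 in place of -0.41. Of 15 imprinted genes 5 were called higher and 3 lower. Over all genes tested the shares were 26.2% higher and 21.9% lower, so these counts do not set the imprinted list apart. NNAT, a membrane protein of developing brain, was at 2021, 463, 757 and 885 FPKM in neurons, against 243, 263, 353 and 154 in srNMPs (log2 change 1.87 ± 0.36, adjusted p = 0.00379). PLAGL1, a zinc finger factor, was at 2.84, 6.15, 3.86 and 3.95 FPKM in neurons, against 44.0, 17.4, 26.3 and 22.0 in srNMPs (log2 change -2.41 ± 0.30, adjusted p = 0.000548). The growth factor IGF2 was at 18.5, 0.976, 28.9 and 0.813 FPKM in neurons and 24.97, 22.6, 38.7 and 12.2 in srNMPs (log2 change -1.82 ± 0.54, adjusted p = 0.0251), with H1 neurons within the range of srNMPs and an adjusted p of 0.12 without the cell line term. PEG3 was at 0.0354, 49.6, 0.0162 and 135 FPKM in neurons and 0.0123, 10.7, 0.0193 and 17.0 in srNMPs, near 0 in every H1 library and above 10 FPKM in every HUES9 library.

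Markers of other cell types were measured in both states. Over all genes tested, 26.2% were called higher and 21.9% lower. The share called higher was not above that of all genes in the astrocyte, oligodendrocyte, neural crest, somite, muscle and fibroblast lists. These counts of higher genes therefore do not set those lists apart. Of 8 astrocyte and ependymal genes 2 were called higher and 1 lower. The defining marker GFAP, the filament of astrocytes, was at 9.55, 0.0267, 13.5 and 2.19 FPKM in neurons, against 0.0431, 0.0170, 0.0360 and 0.0359 in srNMPs (log2 change 2.20 ± 0.58, adjusted p = 0.0152). SLC1A2, a glutamate transporter of astrocytes, was at 20.3, 28.7, 10.7 and 8.19 FPKM in neurons, against 1.58, 0.318, 0.837 and 0.390 in srNMPs (log2 change 3.23 ± 0.39, adjusted p = 0.000446). GJA1, the gap junction protein of astrocytes and of epithelia, fell (log2 change -2.62 ± 0.34). FOXJ1, of ciliated ependymal cells, was at 2.48, 2.41, 18.4 and 34.5 FPKM in neurons and 3.68, 5.47, 4.65 and 2.90 in srNMPs. The summed FPKM of the astrocyte and ependymal list were 112 to 206 in neurons and 131 to 197 in srNMPs. GJA1 alone made up 74.4 to 111 FPKM in srNMPs and 7.34 to 37.9 in neurons. The mean level of the 8 tested genes was 2.28 to 3.65 in neurons and 1.95 to 2.45 in srNMPs, on the log2(FPKM + 1) scale. Of 9 oligodendrocyte genes 1 was called higher, and OLIG1 and OLIG2 were at 0 in dorsal neurons. Of 11 neural crest and Schwann genes 2 were called higher and 2 lower, with NGFR, a neurotrophin receptor, among the higher (log2 change 2.81 ± 0.51). TFAP2A, of crest and of dorsal neural tissue, was at 26.1, 34.2, 0.0848 and 0.00670 FPKM in neurons and 7.83, 0.613, 0.155 and 0.0193 in srNMPs. TFAP2B was at 65.0, 42.6, 0.00854 and 0.0219 FPKM in neurons and 16.7, 5.03, 4.46 and 1.70 in srNMPs, so that both were high in dorsal neurons. SOX10, a crest and glial factor, was at 0.111, 0.318, 1.23 and 4.86 FPKM in neurons and 0.241, 9.89, 0.161 and 0 in srNMPs. Of 6 somite genes 1 was called higher, UNCX, also a factor of neurons, at 19.7, 23.6, 0.322 and 10.4 FPKM in neurons, against 0.0266, 0, 0.0694 and 0.871 in srNMPs. Of 8 muscle genes 2 were called higher, MYH3 and MYLPF, each under 2 FPKM in all 8 libraries, and MYOD1, MYOG and MYF5 were below 1 FPKM in all 8 libraries. Of 10 fibroblast and matrix genes 2 were called higher and 4 lower, with COL1A1 at 4.99, 2.79, 4.38 and 4.001 FPKM in neurons, against 0.690, 1.16, 2.16 and 1.02 in srNMPs and ACTA2 at 4.06, 5.12, 7.25 and 1.10 FPKM in neurons, against 8.51, 40.4, 21.7 and 17.6 in srNMPs. Of 13 genes of endothelium, blood and microglia 3 were tested and none was called (limma, none at an unadjusted p under 0.05). DPPA4 was the only pluripotency gene tested and fell (log2 change -2.24 ± 0.28). POU5F1 and NANOG, the core factors of stem cells, were below 1 FPKM in all 8. The chemokine receptor CXCR4, the 1 endoderm marker tested and also a receptor of migrating neurons, changed by 1.45 ± 0.25. Of 11 stress genes 6 were called higher and 1 lower. The immediate early gene JUN was at 11.8, 22.0, 66.7 and 60.3 FPKM in neurons, against 1.09, 3.41, 0.757 and 3.95 in srNMPs (log2 change 3.47 ± 0.53, adjusted p = 0.00131). FOS and the stress factor DDIT3 changed by 2.25 ± 0.46 and 1.78 ± 0.39, and ATF4, the lower gene, by -0.69 ± 0.20. The part of other cell types, of stress and of dividing cells in the results above was not tested.

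The same neurons were set against 4 cultures after 7 days of neural induction, labelled RABC and RASS, in H1 and HUES9. The labels do not explain either name. By 33 autosomal genes that separate the lines in the neuron and srNMP libraries, 2 of these 4 libraries did not match their labelled line. H1 RASS had 2 of the 33 genes on the side of its label and HUES9 RASS 1, against 32 in each RABC library. Most counts are therefore also given with H1 and HUES9 swapped between the 2 RASS libraries and with both left out, as chosen after seeing the data. Those of the neuromesodermal list and the neural progenitor and NOTCH list are given as labelled only. Library names, standard errors and adjusted p of single genes below also follow the labels. Of 13109 genes tested, 4587 were called (35%), 2499 higher (19.1%) and 2088 lower (15.9%) in neurons. With lines exchanged 2806 were higher and 2393 lower, and without RASS 1681 and 1148. This comparison shares its neuron libraries with the one above, so the pair of results is not independent.

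Synaptic, channel and receptor genes were also higher in neurons than in 7-day progenitors. Of 28 vesicle genes 26 were called higher (26 with lines exchanged and 20 without RASS), of 30 receptor genes 24 (25 and 15), and of 24 channel genes 18 (20 and 14). STMN2 was at 653, 451, 699 and 689 FPKM in neurons, against 140.0, 86.3, 171 and 212 in 7-day cultures, in the order H1 RABC, HUES9 RABC, H1 RASS and HUES9 RASS (log2 change 2.08 ± 0.28, adjusted p = 0.00277). MAPT was at 90.1, 49.8, 140.1 and 97.8 FPKM in neurons, against 3.98, 3.24, 5.85 and 8.27 (log2 change 3.89 ± 0.34, adjusted p = 0.00107). In both genes every 7-day culture was above every srNMP library and below every neuron library. Of 21 neurogenic factors 6 were called higher and 2 lower (7 and 3 with lines exchanged, 4 and 1 without RASS). NEUROG2 was at 14.5, 18.7, 2.13 and 2.54 FPKM in neurons, against 62.7, 48.7, 69.0 and 80.7 in 7-day cultures (log2 change -3.10 ± 0.63, adjusted p = 0.00945). PAX6 was at 3.42, 8.17, 6.17 and 1.46 FPKM in neurons, against 17.7, 21.6, 12.97 and 69.0 (log2 change -2.29 ± 0.56, adjusted p = 0.0173). Neither gene was called against srNMPs. All 7-day cultures were above all neurons and srNMPs in NEUROG2, while in PAX6 the HUES9 passage 25 srNMPs, at 24.5 FPKM, lay above 3 of the 4 7-day cultures.

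Division genes stood lower in neurons than in 7-day cultures, and tail bud genes did not differ by the test. Of 22 mitosis genes 20 were called lower (20 with lines exchanged and 2 without RASS), and of 24 replication genes 23 (23 and 10). MKI67 was at 22.2, 67.2, 9.75 and 15.3 FPKM in neurons, against 87.4, 71.3, 96.7 and 104 (log2 change -1.97 ± 0.49, adjusted p = 0.0186). Of 10 genes of the LIN28 list 9 were called lower (9 and 8). LIN28A was at 0.260, 0.150, 0.976 and 0.284 FPKM in neurons, against 15.7, 101, 72.4 and 21.3 (log2 change -4.88 ± 0.59, adjusted p = 0.00191). Of 9 neuromesodermal genes none was called (limma, 0 higher and 0 lower at an unadjusted p under 0.05). FGF8 was at 0.0959, 0.0474, 0.169 and 0.0248 FPKM in neurons and 0, 0.0464, 1.13 and 0.172 in 7-day cultures. SP5 was at 0, 0.0453, 0.0554 and 0 FPKM in neurons and 10.9, 13.5, 0.00896 and 0.00940, near 0 under RASS and above 10 FPKM under RABC. Of 24 genes of neural progenitors and NOTCH 2 were called higher and 7 lower, and of 76 ribosomal protein genes 20 were called lower (21 with lines exchanged and 69 without RASS).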

How the data were processed

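RNA of whole cultures was extracted with TRIzol and mirVana and made into TruSeq Stranded mRNA libraries that were read on a NovaSeq instrument, per the labels' protocols. Trimmomatic, HISAT2, HTSeq and Cufflinks are named without versions, with genome build hg18, per the submitters' processing notes. Their settings and the gene lengths used are not given in the sources used here. The authors deposited 1 table of FPKM values for 17999 gene symbols, which were used as listed. FPKM hold no counts, so depth per library is unknown. The relative depth read from low values could show small differences only. 1 column of values matched no sample and was not used.

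Libraries were grouped by their titles. Genes at 1 FPKM or more in at least 1 library of the fit were tested on log2(FPKM + 1) with limma 3.58.1 in R 4.3.3, using the empirical Bayes variance trend, 1 mean per state and a cell line term, and p-values were adjusted by Benjamini and Hochberg over all genes tested. Every adjusted p given comes from such a fit. Libraries are paired by the named cell line. Differences between the lines correlated by 0.0692 to 0.369 between kinds of culture. Motif windows, 250 bases before to 50 after each start, are RefSeq sequences of GRCh38.p14, which is not the build behind the FPKM, and genes were matched by symbol. Gene symbols were used without hg18 coordinates.

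The genes compared and the lists were chosen with earlier results of these data known. The naming rule took the 5 markers, the 10 largest called changes in each direction with a mean of at least 5 FPKM in the higher state and no overlap, from each list the first tested gene, up to 3 largest called in the main direction and 1 in the other, and both genes of each pair. Other genes named were chosen after their values were seen. Alternatives changed the pseudocount, filter, scaling, variance trend, cell line term, libraries of the fit and the fold required. Embryonic stem cell and muscle libraries entered only the fit of all 15 libraries. Some genes that this rule names, and 1 pair, are not reported here.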

Additional observations from a re-analysis of the deposited data

Results flagged for a closer look

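In a state of 4 libraries, 1 library was set apart when its gap to the nearest of the others was, as a share of the whole range on the log2(FPKM + 1) scale, above Dixon's critical value for 4 values. Of 552 sets of 4 values, for the genes named in the text and the means of the lists, 41 had such a library (7.4%). Chance gives about 1 in 20 when sets are picked without knowledge of their levels. Part of the genes entered the text with their levels already known, so the share found cannot be set against that rate. Several of the 41 sets lie near 0 FPKM. The H1 dorsal neurons stood above the other neurons in ACTL6B (50.5 FPKM), CDX2 (0.0128 FPKM) and CDX4 (0.0177 FPKM). The H1 dorsal neurons stood below the other neurons in HES3 (0 FPKM) and SPRY2 (4.76 FPKM). The HUES9 dorsal neurons stood above the other neurons in FBL (138 FPKM) and TBXT (0.135 FPKM). The HUES9 dorsal neurons stood below the other neurons in KIF5A (45.0 FPKM) and STMN2 (451 FPKM). The H1 ventral neurons stood above the other neurons in CDKN2D (48.3 FPKM). The H1 passage 8 srNMPs stood above the other srNMPs in CELF5 (0.297 FPKM) and LIN28B (37.7 FPKM). The H1 passage 8 srNMPs stood below the other srNMPs in E2F1 (15.2 FPKM). The HUES9 passage 8 srNMPs stood above the other srNMPs in ATP5F1A (157 FPKM), PTF1A (0.124 FPKM) and SOX10 (9.89 FPKM). The HUES9 passage 8 srNMPs stood below the other srNMPs in SHANK3 (3.11 FPKM). The HUES9 passage 25 srNMPs stood above the other srNMPs in ACTL6B (0.701 FPKM), CHAT (0.617 FPKM), CPLX2 (5.03 FPKM), EPHA3 (0.351 FPKM), GAD2 (0.419 FPKM) and GRIA2 (0.632 FPKM). Further, the HUES9 passage 25 srNMPs stood above the other srNMPs in HOXD10 (0.696 FPKM), LHX1 (0.650 FPKM), LHX3 (0.588 FPKM), LHX4 (1.65 FPKM), LRRTM2 (1.52 FPKM) and NEUROD1 (5.49 FPKM). Further, the HUES9 passage 25 srNMPs stood above the other srNMPs in NTN1 (13.1 FPKM), OLIG1 (2.53 FPKM), OLIG2 (3.08 FPKM), PAX6 (24.5 FPKM), SCRT1 (2.96 FPKM) and SLC2A1 (443 FPKM). Further, the HUES9 passage 25 srNMPs stood above the other srNMPs in SLC6A5 (1.02 FPKM), TTC9B (0.281 FPKM) and UNCX (0.871 FPKM). The mean level of voltage-gated channels in HUES9 passage 8 srNMPs was 0.37, below the 0.73 to 0.77 of the other srNMPs on the log2(FPKM + 1) scale. The mean level of motor neuron genes in HUES9 passage 25 srNMPs was 0.74, above the 0.23 to 0.29 of the other srNMPs on the log2(FPKM + 1) scale. The mean level of cholesterol synthesis in HUES9 passage 25 srNMPs was 5.92, above the 5.63 to 5.68 of the other srNMPs on the log2(FPKM + 1) scale.

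Some genes named in the text were above every srNMP library in both cultures of 1 kind of neuron and below every srNMP library in both cultures of the other kind, a difference that was not tested. Dorsal minus ventral neurons, the difference in mean log2(FPKM + 1) was 4.04 for CCND1, 1.96 for HOXB9, 4.94 for PAX2 and 5.72 for TFAP2B, with dorsal neurons above and ventral neurons below the srNMPs. It was -2.93 for FOXJ1, -3.87 for LHX4, -4.06 for NEFL and -2.66 for NEFM, with the ventral neurons above. For LHX4 the srNMPs other than HUES9 passage 25 were at 0.0264 to 0.0373 FPKM. Dorsal neurons were lower still, so their place below the srNMPs rests on values near 0 FPKM.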

How the results depend on the processing

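Counts of genes higher and lower in neurons than in srNMPs stayed within 1.5 times under most alternatives. The exceptions were passage 8 srNMPs only (2094 higher, 1504 lower), passage 25 srNMPs only (2248 higher), equal summed FPKM (1785 lower), and a required log2 change of at least 1 (2015 higher, 1369 lower). Without each library in turn, 2562 to 3330 genes were higher and 2027 to 2760 lower, with both lowest counts without H1 passage 25 srNMPs. Libraries are paired by cell line, and without this replicate block 3476 genes were higher and 2939 lower. Without both HUES9 dorsal neurons and HUES9 passage 25 srNMPs, a choice made after seeing the data, 3203 were higher and 2577 lower. The test of a difference between cell lines called 1 gene with a pseudocount of 5 FPKM and 0 under each other setting, with 0 to 0 without each library. Against 7-day cultures, a log2 change of at least 1 left 1303 higher and 793 lower, and RASS libraries left out gave 1148 lower. Without each library in turn 1759 to 2404 were higher and 1378 to 2015 lower, with the lowest lower count without H1 RASS.

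Of 235 genes named, 193 lost no call. These 193 include genes that were not called in the main fit and so had no call to lose. The number is therefore not a share of calls that held. Calls that ended when 1 library was left out were those of ATF4, CCND2, CDK1, DNMT3A, EZH2, GFAP, HK2, IGF2, LDHA, NKX1-2 and SLC6A5. Against srNMPs the direction turned, with a call, for CCND1 (1.39), NEFL (-0.72), NEFM (-0.63) and PAX2 (1.76) with dorsal neurons only, for HOXB9 (-0.82) and TFAP2B (-2.63) with ventral neurons only, and for VIM (0.79) after quantile normalization. The cause was not tested, and 2 of 4 neuron libraries remain in the fits of 1 neuron type. FPKM give no counts, so differences near 0 FPKM are not detectable with a known precision.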
